A study of Mus musculus with 12 samples.

Results

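Gfap, Apoe and Pla2g7 are astrocyte genes, and their transcripts were followed here in mouse hippocampus across loss of CREB and CREM and across kainate treatment. The members are every probe set that the platform annotation assigns to one of these symbols, which gave 1 probe set for each gene (140546_at for Gfap, 169907_r_at for Apoe and 171440_at for Pla2g7), or 3 genes of 5933 with a symbol of their own on the array. The genes were chosen by measured values of these data. Apoe and Pla2g7 were selected on their kainate difference averaged over genotypes, and Gfap on its kainate difference in control mice and its level on individual arrays. Kainate differences of these genes are therefore given as a description with no test. Genotype comparisons were tested. For Gfap the choice used the control saline arrays and favours a low mean there, which bears on the genotype difference after saline. The Gfap levels were also known beforehand, so the genotype p-values, intervals and ranks of Gfap are not an independent test.

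Hippocampal RNA was measured on 12 Affymetrix arrays in 4 groups of 3, from control mice and from mice the series title describes as lacking CREB and CREM, after kainate or after saline. Kainate is a glutamate receptor agonist that evokes seizures, and it was given intraperitoneally at 20 mg/kg. All animals were littermates of both sexes, 5 to 6 weeks old, caged singly and handled for 5 days, and were killed 1 hour after the injection. Each array holds the pooled RNA of 3 animals, so the spread between arrays is a spread between pools. The alleles behind the mutant and control labels, and the cell types in which the genes were lost, are not known from the sources used. In RNA of whole hippocampus, fewer cells of a type and less RNA per cell cannot be told apart.

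Astrocytes take up glutamate and potassium released by active neurons and supply neurons with lipid. Gfap encodes glial fibrillary acidic protein, the intermediate filament of mature astrocytes, whose transcript rises when astrocytes become reactive. Apoe encodes apolipoprotein E, the main carrier of cholesterol and phospholipid between astrocytes and neurons, and Pla2g7 encodes the secreted phospholipase that inactivates platelet-activating factor. CREB and CREM bind the cyclic AMP response element (CRE) and regulate transcription after neuronal activity.

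The sequences before the start sites of the 3 genes are shown because the mutants lack factors that bind the CRE. They come from RefSeq (build GRCm38.p6). Among the starts used, Gfap and Pla2g7 had 1 each and Apoe had 3, of which the most upstream is shown. The annotated gene of Apoe reaches to 19701310 and that of Pla2g7 begins at 43567994. Both ends lie upstream of the starts shown, and the sequence before them was not searched. Each run covers the 250 bases before the start, and for Gfap the bases beyond the start that complete a match. Capitals mark matches to the STAT motif TTCNNNGAA.
Gfap (chr11:102897194-102897450, minus strand): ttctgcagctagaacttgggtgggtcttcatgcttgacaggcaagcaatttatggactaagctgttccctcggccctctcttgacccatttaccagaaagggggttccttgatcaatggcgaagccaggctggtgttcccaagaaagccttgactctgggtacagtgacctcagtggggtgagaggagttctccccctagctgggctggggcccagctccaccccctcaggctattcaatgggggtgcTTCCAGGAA
Apoe (chr7:19699189-19699438, minus strand): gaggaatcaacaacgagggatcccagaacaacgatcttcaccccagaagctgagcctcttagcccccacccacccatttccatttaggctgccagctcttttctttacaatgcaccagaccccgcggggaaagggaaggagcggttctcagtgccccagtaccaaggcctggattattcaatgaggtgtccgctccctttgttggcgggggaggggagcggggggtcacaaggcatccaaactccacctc
Pla2g7 (chr17:43568201-43568450, plus strand): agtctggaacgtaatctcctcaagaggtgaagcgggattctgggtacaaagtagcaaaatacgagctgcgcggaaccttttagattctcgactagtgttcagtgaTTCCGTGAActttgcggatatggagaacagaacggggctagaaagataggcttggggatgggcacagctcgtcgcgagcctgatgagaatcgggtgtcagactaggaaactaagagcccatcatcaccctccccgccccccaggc
The windows searched ran from 250 bases before to 50 bases after each start, on both strands. No window of the 3 genes held the full CRE (TGACGTCA), which 1.79% of all 32851 windows hold. None held its core (TGACG), which overlaps the full site and is in 20.8% of windows, and none held the AP-1 motif (TGANTCA), which is in 7.81%. The STAT motif, present in 8.3% of windows, occurred once in Gfap, from position -2 relative to the start (TTCCAGGAA), and once in Pla2g7, from position -145 (TTCCGTGAA). A match is a description of the letters and not a binding site, and a missing match says only that these letters are not in the window.

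The deposited values are on the log2 scale, and a probe set entered the tests if it reached 4 on at least 3 of the 12 arrays, which 3541 of 11868 probe sets did (29.8%). All 3 members passed. Across arrays, 2 features matter for what follows. Over the tested probe sets the 4 replicate 1 arrays had pairwise correlations of 0.987 to 0.992 across groups. With replicates 2 and 3 of the same group the correlations were 0.818 to 0.968. Differences are therefore given within replicate 1 and within replicates 2 and 3, called batches here from these correlations alone. The array of mutant kainate replicate 3 had a compressed range (SD of 1.52 over probe sets against 1.71 to 1.78 on the other arrays). That array and the array labelled control kainate replicate 3 also read against their labels for Gfap, and results that rest on them are given with and without them. Since these arrays are singled out by their Gfap values, every Gfap value without them is a description that the choice helps to fix, and no test is drawn from it.

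Of the members, Gfap was by far the brightest, ranking between 1 and 45 of 11868 probe sets on every array. Pla2g7 lay between ranks 1785 and 2583, and Apoe between 1990 and 4557. Apoe is among the abundant astrocyte transcripts of the brain, but its probe set read only 3.69 to 4.69 here, around the dim level of 4. The probe set of Pla2g7 read 4.36 to 4.87, also near that level. The sizes of the Apoe and Pla2g7 differences are therefore uncertain. Levels of different probe sets are not comparable with each other, since probes differ in affinity.

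**Figure D1:**
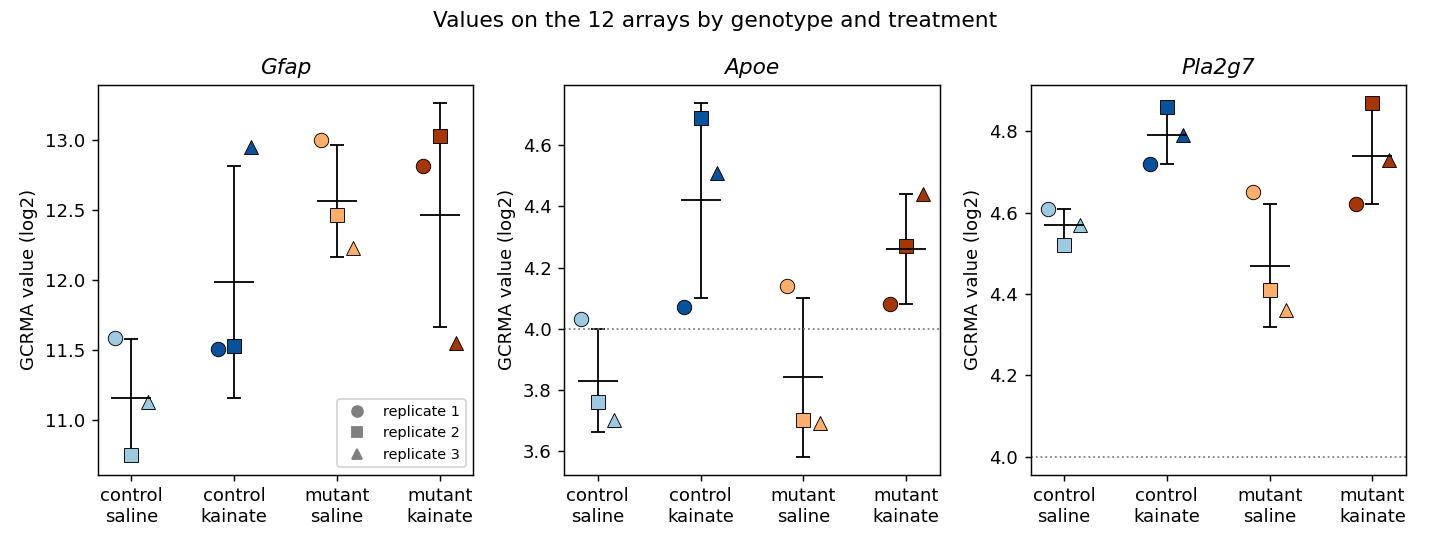
GCRMA value (log2, vertical axis, a separate scale for each gene) on each of the 12 arrays, by group, with circles, squares and triangles for replicates 1, 2 and 3, a bar at the group mean and whiskers of 1 SD (n = 3 arrays). The dotted line marks the dim level of 4. Gfap is high on all mutant saline arrays, on mutant kainate replicates 1 and 2 and on control kainate replicate 3. On replicates 2 and 3, Apoe and Pla2g7 are lower than on replicate 1 after saline and higher after kainate, in both genotypes.

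Gfap was higher in mutant than in control mice after saline. The control saline arrays read 11.59, 10.75 and 11.13 for replicates 1, 2 and 3, and the mutant saline arrays read 13, 12.47 and 12.23. All 3 mutant arrays lay above every control array. The means were 11.16 ± 0.42 and 12.57 ± 0.40 (SD, n = 3 arrays each), which differed by 1.41 ± 0.49 on the log2 scale (standard error of the limma fit), or 2.65-fold. Among all 3541 probe sets this was the largest upward difference in that comparison, which the choice of Gfap by its values helps to fix. It did not pass the threshold of 0.05 after Benjamini-Hochberg adjustment over those probe sets (limma, adjusted p = 0.385), and neither did any other probe set (0 called, 0% of those tested, with 428 at an unadjusted p under 0.05). The absence of overlap is weak evidence by itself, because 29% of all tested probe sets were higher in mutants with no overlap after saline.

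The genotype difference of Gfap after saline was positive under each replicate number, at 1.41, 1.71 and 1.09 for replicates 1, 2 and 3. Within replicates 2 and 3 together it was 1.40. The 95% confidence interval of the difference in the full fit ran from 0.30 to 2.51. Leaving out any 1 of the 12 arrays gave values of 1.19 to 1.62. Neither of the arrays that read against their labels enters the means of this comparison, although both enter the shared estimate of spread.

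After kainate the genotypes overlapped for Gfap. The control kainate arrays read 11.51, 11.53 and 12.95, and the mutant kainate arrays 12.82, 13.03 and 11.55. Replicate 3 was thus reversed, with its control array at the mutant level and its mutant array at the control level. The means were 11.99 ± 0.83 and 12.47 ± 0.80 (SD, n = 3 arrays per group), a difference of 0.47 ± 0.49 (limma, adjusted p = 0.579, with 0% of probe sets called and 167 at an unadjusted p under 0.05). By replicate number the difference was 1.31, 1.51 and -1.40 for replicates 1, 2 and 3, and within replicates 2 and 3 together it was 0.05. Leaving out 1 array gave 0.19 to 0.95, with 0.19 without mutant kainate replicate 2, 0.95 without control kainate replicate 3 and 0.93 without mutant kainate replicate 3.

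Without the replicate 3 kainate arrays of both genotypes the difference after kainate was 1.41, a value that follows from leaving out the arrays that opposed it. On mutant kainate replicate 3, Gfap read 1.38 below the mean of replicates 1 and 2 of its group (a difference of -1.38). Over the 34 probe sets with a mean of at least 11 the median of that difference was -0.41, with 31 negative, and 2 of the 34, Gfap included, were at or below -1.38. The level of 11 was chosen after the values were seen. Whether the compressed range has a part in the low Gfap value was not tested, and neither was an exchange of the 2 arrays, which would change what the differences after kainate and on average mean.

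Averaged over both treatments, Gfap had a mean of 11.58 in control and 12.52 in mutant mice (6 arrays each), a difference of 0.94 ± 0.35 or 1.92-fold. This was again the largest upward difference of 3541 probe sets, and it did not pass (limma, adjusted p = 0.247, with 0% of probe sets called and 677 at an unadjusted p under 0.05). Within replicate 1 it was 1.36 and within replicates 2 and 3 it was 0.73, the latter made up of 1.61 for replicate 2 and -0.15 for replicate 3. Without both replicate 3 kainate arrays it was 1.41, again by the choice of arrays.

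On the 10 other arrays, every mutant array lay above every control array for 27 of 3541 probe sets (0.762%), Gfap among them. Control kainate replicate 3 read on the mutant side of the midpoint for 13 of the 27, and mutant kainate replicate 3 did so for 18. For the 48 probe sets on which mutants lay below controls, the numbers were 38 and 44. Reading against the label on both arrays, as Gfap did, was found for 8 of the 27 and 3 of the 48. Among these 8 were the largest differences of the 27 on the 10 other arrays. They were Gfap (1.41), Laptm5 (0.65), a probe set without a symbol of its own (0.56) and Lgals3bp (0.54). The smallest of the 27 differences was 0.05. The part of the compressed range of mutant kainate replicate 3 in these counts was not tested.

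Apoe and Pla2g7 differed between genotypes by no more than their spread between arrays. Apoe read 4.03, 3.76 and 3.70 in control saline and 4.14, 3.70 and 3.69 in mutant saline, a difference of 0.01 ± 0.19 (limma, adjusted p = 0.997, 95% confidence interval -0.41 to 0.43). After kainate it read 4.07, 4.69 and 4.51 in control and 4.08, 4.27 and 4.44 in mutant mice, a difference of -0.16 ± 0.19 (adjusted p = 0.612). The genotypes overlapped under both treatments. The interval covers the reading of this dim probe set and does not bound the change of the transcript.

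Pla2g7 read 4.61, 4.52 and 4.57 in control saline and 4.65, 4.41 and 4.36 in mutant saline, a difference of -0.09 ± 0.09 (limma, adjusted p = 0.855). After kainate it read 4.72, 4.86 and 4.79 in control and 4.62, 4.87 and 4.73 in mutant mice, a difference of -0.05 ± 0.09 (adjusted p = 0.764). The groups overlapped in both cases. Averaged over treatments the genotype difference was -0.07 ± 0.06 (adjusted p = 0.528, 95% confidence interval -0.21 to 0.07), and that of Apoe was -0.07 ± 0.13 (adjusted p = 0.738, interval -0.37 to 0.22).

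On the means over all arrays, Apoe and Pla2g7 read higher after kainate in both genotypes, which their choice on the averaged kainate difference favours. Gfap, chosen on its kainate difference in control mice, had a higher mean in control mice and not in mutant mice. Apoe had a mean of 3.83 ± 0.17 in control saline and 4.42 ± 0.32 in control kainate (SD, n = 3 arrays per group), a difference of 0.59 ± 0.19, and all 3 kainate arrays lay above every saline array. In mutant mice the means were 3.84 ± 0.26 and 4.26 ± 0.18, a difference of 0.42 ± 0.19, with 2 of 3 kainate arrays above every saline array. Averaged over genotypes the Apoe difference was 0.51 ± 0.13.

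Pla2g7 was also higher on the kainate arrays, by a smaller difference. Its means were 4.57 ± 0.04 and 4.79 ± 0.07 in control mice, a difference of 0.22 ± 0.09 with no overlap, and 4.47 ± 0.15 and 4.74 ± 0.12 in mutant mice, a difference of 0.27 ± 0.09 with 2 of 3 kainate arrays above every saline array. Averaged over genotypes the difference was 0.25 ± 0.06. For comparison, 6.02% of all tested probe sets were higher after kainate with no overlap in control mice. At the threshold of 0.05 on the adjusted p, 0.141% of probe sets were called on the averaged kainate effect and 0.0282% in each genotype. Nothing is read from these shares, since the members were chosen on these differences.

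Gfap showed no common direction after kainate. In control mice its difference was 0.84 ± 0.49, of which control kainate replicate 3 supplied the larger share: without this array it was 0.36. In mutant mice it was -0.10 ± 0.49, and 0.36 without mutant kainate replicate 3. Averaged over genotypes it was 0.37 ± 0.35 with all arrays, 0.13 without control kainate replicate 3, 0.60 without mutant kainate replicate 3 and 0.36 without both. The difference between the genotypes in the kainate effect was -0.93 ± 0.69 with all arrays and 0 without both, -0.17 ± 0.27 for Apoe and 0.05 ± 0.13 for Pla2g7, and was not tested for the members.

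The kainate differences of Apoe and Pla2g7 came from replicates 2 and 3. For Apoe the averaged difference was -0.01 within replicate 1, 0.75 within replicate 2 and 0.78 within replicate 3. For Pla2g7 it was 0.04, 0.40 and 0.29 in the same order. Gfap gave -0.14, 0.67 and 0.57. Against replicate 1, the arrays of replicates 2 and 3 read lower after saline and higher after kainate. For Apoe the 4 saline arrays read 3.69 to 3.76, against 4.03 and 4.14 on the replicate 1 saline arrays. The 4 kainate arrays read 4.27 to 4.69, against 4.07 and 4.08. For Pla2g7 the values were 4.36 to 4.57 against 4.61 and 4.65 after saline, and 4.73 to 4.87 against 4.72 and 4.62 after kainate.

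A measure of RNA quality moved with the Apoe and Pla2g7 values between saline and kainate in replicates 2 and 3, and also between the batches. The actin control probe sets differ between the 3′ and the 5′ end of the transcript, and a larger 3′ minus 5′ difference accompanies shorter or degraded target. In replicates 2 and 3 it was 1.74 to 1.83 on saline arrays and 2.20 to 2.44 on kainate arrays, with no overlap. In replicate 1 it ran the other way, at 1.92 to 2.00 after saline and 1.61 to 1.77 after kainate. Replicate 1 thus lay above replicates 2 and 3 after saline and below them after kainate, as it did for Apoe and Pla2g7. For Gapdh the difference was 0.01 to 0.12 after saline and 0.12 to 0.32 after kainate in replicates 2 and 3. In replicate 1 it was -0.15 to -0.08 after saline and -0.09 to -0.08 after kainate, below every array of replicates 2 and 3. The part of RNA quality in the Apoe and Pla2g7 differences was not tested.

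**Figure D2:**
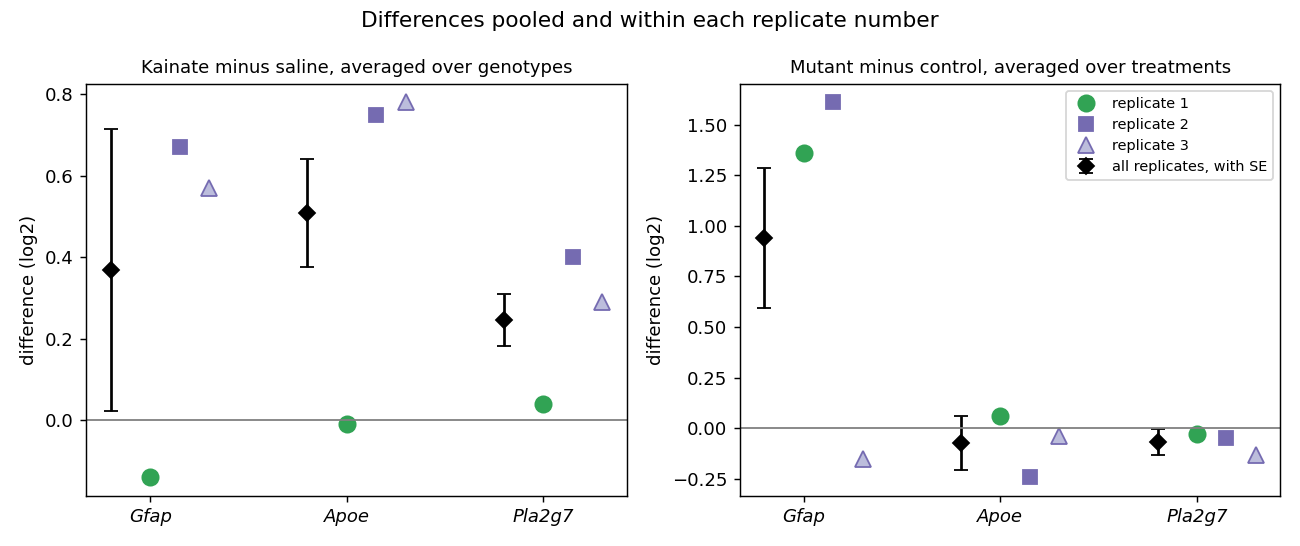
Log2 difference for kainate minus saline (left) and mutant minus control (right) for each gene, as the pooled value with its standard error (diamonds) and within replicate 1 (circles), replicate 2 (squares) and replicate 3 (triangles). The kainate differences of Apoe and Pla2g7 are near 0 in replicate 1, and the genotype difference of Gfap is -0.15 in replicate 3 against 1.36 and 1.61 in the others.

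Over the 12 arrays Apoe and Pla2g7 resembled each other, and Gfap resembled neither. Likeness was measured as Pearson's r over the 12 arrays, against 2386 other genes, and is a description because the arrays share groups and batches. Apoe and Pla2g7 were also both chosen on their averaged kainate difference, and Gfap on other values of these arrays. That choice helps to fix the likeness of Apoe to Pla2g7 and the distance of both from Gfap. Pla2g7 ranked 3 of 2386 for likeness to Apoe (r = 0.888), and Apoe ranked 3 for likeness to Pla2g7. Gfap correlated with Apoe at 0.231 and with Pla2g7 at 0.169. With the mean of each batch subtracted the correlation of Apoe and Pla2g7 was 0.889, but the ranks were 10 and 13, since other genes came closer, and without both replicate 3 kainate arrays as well they were 24 and 32 (r = 0.884). With batch means subtracted on all 12 arrays, Gfap correlated with Apoe and Pla2g7 at 0.238 and 0.167.

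The genes most like Gfap were Rasgef1b (r = 0.862), which encodes an exchange factor for Ras-family GTPases, Lgals3bp (0.855), a secreted galectin-binding glycoprotein, Laptm5 (0.843), a lysosomal membrane protein of microglia and other haematopoietic cells, the glutathione transferase Gstm1 (0.817) and the brain creatine kinase Ckb (0.805). Without the replicate 3 kainate arrays of both genotypes, Lgals3bp, Rasgef1b and Laptm5 were again the 3 most like it, at 0.949, 0.935 and 0.93. With batch means subtracted the 5 most like Gfap were Rasgef1b, Gstm1, Lgals3bp, Laptm5 and Spo11 (0.801). Laptm5 read 9.33, 9.37 and 9.10 in control saline, 9.64, 9.57 and 10.44 in control kainate, 10.23, 9.81 and 9.78 in mutant saline and 10.12, 10.31 and 8.67 in mutant kainate. As for Gfap, its highest control value was on control kainate replicate 3 and its lowest mutant value on mutant kainate replicate 3.

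**Figure D3:**
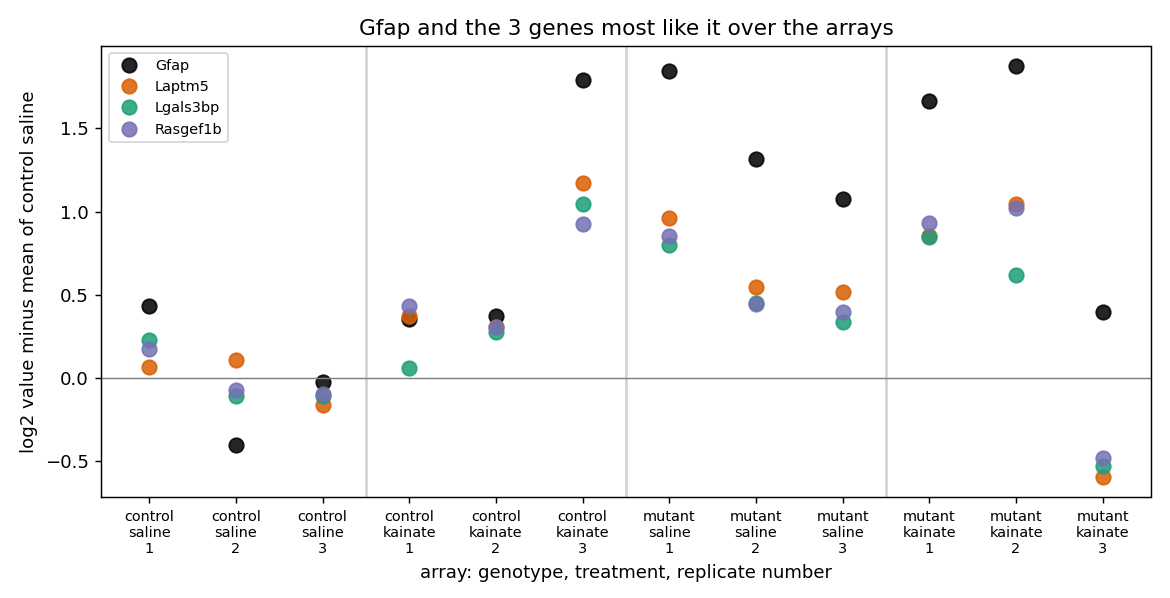
Log2 value minus the mean of the control saline arrays (vertical axis) for Gfap, Laptm5, Lgals3bp and Rasgef1b on each of the 12 arrays (horizontal axis, by genotype, treatment and replicate number). All 4 genes are high on control kainate replicate 3 and low on mutant kainate replicate 3 relative to the other arrays of those groups.

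The genes most like Apoe were Smox (r = 0.931), which encodes spermine oxidase, the fucose kinase gene Fcsk (0.89), Pla2g7, the glycosyltransferase gene B3gnt7 (0.886) and the phosphatase gene Ppm1j (0.866). Those most like Pla2g7 were 1700113H08Rik (0.923), Vapb (0.921), which encodes a membrane-contact protein of the endoplasmic reticulum, Apoe, the securin gene Pttg1 (0.883) and Fcsk (0.877). Smox read 8.16, 7.68 and 7.80 in control saline and 8.16, 8.51 and 8.40 in control kainate, with the replicate 1 arrays equal to 2 decimals and the others higher after kainate. In mutants it read 8.21, 7.88 and 7.87 after saline and 8.27, 8.30 and 8.28 after kainate. Apoe, Pla2g7 and Smox thus read lower on the 4 saline arrays of replicates 2 and 3 than on those of replicate 1. On the kainate arrays of replicates 2 and 3 they read higher than on those of replicate 1.

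The other measured astrocyte markers had no common direction between genotypes. Of 54 listed genes 16 were on the array and 9, the 3 members included, passed the filter. On the averaged genotype difference the 6 others split into 3 positive and 3 negative, with 0 passed. Their median was -0.05, against -0.01 over all tested probe sets, of which 48.9% were positive. With the members included, 4 of the 9 were positive and 5 negative (median -0.07). After Gfap the most positive were the fatty acid binding protein gene Fabp7 (0.17 ± 0.08) and Mlc1, which encodes an astrocyte membrane protein (0.15 ± 0.11). Tril, a Toll-like receptor co-factor gene (-0.36 ± 0.40), and the glutamate transporter gene Slc1a2 (-0.34 ± 0.95) were the most negative. Of markers that define the cell type, Aqp4, Aldh1l1 and Gja1 were not among the measured genes.

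On the averaged kainate difference the 3 members were positive, as their choice fixes, and the 6 other astrocyte markers split into 3 positive and 3 negative, with 0 of the 6 past the threshold. Their median was -0.01, against -0.04 over all probe sets, of which 31.6% were positive. The positive ones were Slc1a2 (0.17 ± 0.95), the protease gene Htra1 (0.15 ± 0.18) and Mlc1 (0.09 ± 0.11). The negative ones were Tril (-0.36 ± 0.40), the lipid phosphatase gene Plpp3 (-0.16 ± 0.32) and Fabp7 (-0.11 ± 0.08). The mean level of the 6 astrocyte markers other than the members ran from 6.40 to 6.83 in control saline, 6.26 to 7.08 in control kainate, 6.29 to 6.94 in mutant saline and 6.30 to 6.87 in mutant kainate, so the groups overlapped.

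Slc1a2 followed the batches more than any group, at 3.68 to 4.42 on the 4 replicate 1 arrays and 6.54 to 7.73 on the 8 others. Tril read 4.10 on mutant kainate replicate 3 and 6.42 to 6.80 on the other arrays. Mlc1 read 5.82 on that array and 5.08 to 5.20 elsewhere. Within replicate 1 the genotype differences of Tril and Mlc1 were 0.08 and 0.04, and the kainate differences 0.07 and -0.02.

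**Figure D4:**
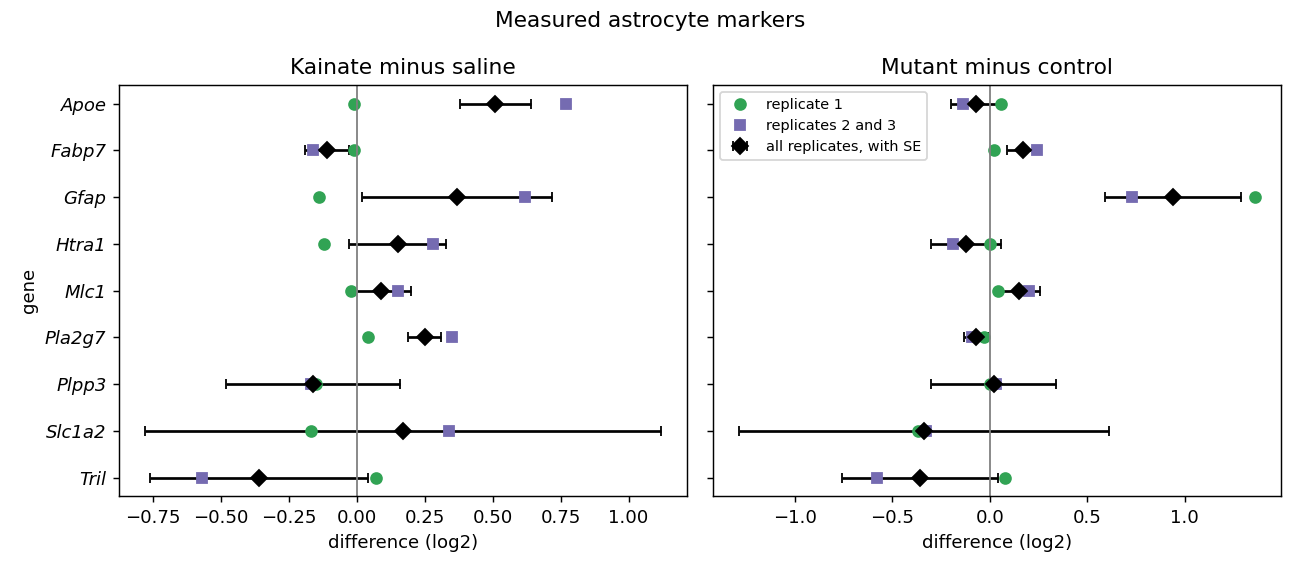
Log2 differences (horizontal axis, diamonds with standard errors) of the 9 measured astrocyte markers for kainate minus saline (left) and mutant minus control (right), with the values within replicate 1 (circles) and within replicates 2 and 3 (squares). The pooled genotype difference of Gfap (0.94) is the largest, and the kainate differences of Apoe and Pla2g7 are -0.01 and 0.04 in replicate 1 against 0.77 and 0.35 in replicates 2 and 3.

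Genes that act with each member gave little to set beside it. Of 42 genes of reactive astrocytes 8 were on the array and 3 passed the filter. Besides Gfap these were Stat3, which encodes a transcription factor of astrocyte reactivity (genotype difference of 0.06 ± 0.04, kainate difference of 0 ± 0.04), and its cytokine receptor subunit Il6st (-0.18 ± 0.33 and -0.23 ± 0.33). Among intermediate filaments and their partners, 9 of 29 were on the array, and 1 gene besides Gfap was measured, the neuronal filament gene Ina (-0.14 ± 0.11 for genotype and -0.02 ± 0.11 for kainate). None of these passed the threshold in either comparison.

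Of 65 genes of lipoproteins and lipid transport 13 were on the array and 7 passed the filter. On the averaged kainate difference Apoe was positive by its choice, and of the 6 others 1 was positive, the cholesterol hydroxylase gene Cyp46a1 (0.18 ± 0.17), 5 were negative and 0 passed. The apolipoprotein E receptor gene Lrp8 gave -0.19 ± 0.25, with 0.26 within replicate 1 and -0.41 within replicates 2 and 3. The retinoid receptor gene Rxra gave -0.40 ± 0.18. On the genotype difference 1 of the 7 was positive (Rxra at 0.27 ± 0.18) and 0 passed.

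Of 41 genes of platelet-activating factor and phospholipase A2 metabolism 12 were on the array and 5 passed the filter. Besides Pla2g7, which was chosen on its positive kainate difference, the other 4 were all negative on the averaged kainate difference and 0 of these 4 passed. Pafah1b2, which encodes a catalytic subunit of the intracellular enzyme for the same substrate, gave -0.39 ± 0.67, and Agps, a gene of ether lipid synthesis, gave -0.72 ± 0.50, with 0.20 within replicate 1 and -1.19 within replicates 2 and 3. Agps read 3.35 on mutant kainate replicate 3 and 5.41 on replicate 2 of that group, against 6.52 to 7.26 on the other arrays.

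Markers of other cell types were set beside the Gfap difference. Of 32 microglial genes 5 were measured, 3 positive and 2 negative on the averaged genotype difference with 0 passed (median 0.01). Their mean level ran from 6.46 to 6.72 in control saline, 6.51 to 7.02 in control kainate, 6.75 to 7.00 in mutant saline and 6.07 to 6.83 in mutant kainate. After saline the mutant arrays thus lay above the control arrays for this list too, the nearest at 6.75 and 6.72. All 5 genes were positive in that comparison with 0 passed (median 0.14 against 0.04 over all probe sets). Of all tested probe sets 58.7% were positive there, and 29% were higher in mutants with no overlap. The 6 astrocyte markers other than the members gave 4 positive and 2 negative in the same comparison (median 0.05). Laptm5 gave 0.67 ± 0.40 after saline, the chemokine receptor gene Cx3cr1 0.28 ± 0.52 and the purinergic receptor gene P2ry12 0.14 ± 0.10. Averaged over treatments the same genes gave 0.25 ± 0.28, 0.01 ± 0.37 and 0.04 ± 0.07. On the averaged genotype difference 48.9% of all tested probe sets were positive. Of 60 neuronal genes 23 were measured, 2 positive and 21 negative on it with 0 passed (median -0.23, and -0.10 without both replicate 3 kainate arrays). Their mean level was 8.81 to 8.88 in control saline, 8.81 to 8.93 in control kainate, 8.55 to 8.77 in mutant saline and 7.99 to 8.82 in mutant kainate. The part of either in the Gfap difference was not tested.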

How the data were processed

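The table deposited by the authors holds GCRMA values on the log2 scale for 11934 probe sets, made in R 2.4.1 per the submitters' processing notes. The version of GCRMA is not given in the sources used here, and the deposited table carries no detection or saturation calls. The values were used as deposited, without the 66 control probe sets. Gene symbols came from the platform annotation.

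All groups entered a single linear model (limma 3.58.1 under R 4.3.3, with empirical Bayes moderation) over the probe sets that passed the filter, with 7 comparisons among the 4 group means, with 8 residual degrees of freedom and Benjamini-Hochberg adjustment over 3541 probe sets. The fit was tested on simulated data. The members, the 10 gene lists (409 genes, 61 measured, brightest probe set per gene) and the alternatives were chosen with earlier results of these data known. Genes were named if they were members, measured astrocyte markers, among the 5 most like a member (with or without batch means subtracted), or among the 4 largest kainate or genotype differences of another list.

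Replicate numbers are shared between groups. Deviations of same-numbered arrays from their group means correlated, by replicate number, at 0.627, 0.383 and 0.458 (control saline with control kainate), 0.855, 0.47 and 0.482 (both saline groups), 0.578, 0.333 and 0.19 (both kainate groups), and 0.479, 0.0448 and -0.0779 (mutant saline with mutant kainate). The numbers were taken to pair the arrays in the first 3 of these. The main fit has no term for this pairing, so its standard errors, intervals and p-values are unpaired. The replicate number entered as a block only as an alternative setting. The number of arrays limits the precision, and p-values measure the spread between these pools.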

Additional observations from a re-analysis of the deposited data

How the results depend on the processing

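The genotype difference of Gfap was positive under the settings run, but it reached the threshold, for the average over treatments, only where the setting cannot serve as a test: 1.41 with the batch block and both replicate 3 kainate arrays left out, arrays singled out by their Gfap values, and 1.04 with array weights, whose estimate did not converge. After kainate the Gfap difference was 1.31 in replicate 1 alone, 0.05 in replicates 2 and 3 alone and 0.19 to 0.95 with 1 array left out. With the replicate number as a block, no call on a member changed (Gfap 0.94, 1.41 and 0.47 for genotype on average, after saline and after kainate).

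Small differences changed sign. Apoe after saline was -0.05 with quantile normalization again, -0.04 in replicates 2 and 3 alone, and -0.14 to 0.11 with 1 array left out. Pla2g7 after kainate was 0.03 with quantile normalization again, 0.06 with array weights, and -0.11 to 0.01 with 1 array left out. Pla2g7 after saline was 0.04 in replicate 1 alone.

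The kainate differences of Apoe were 0.77 on average, 0.87 in control and 0.67 in mutant mice in replicates 2 and 3 alone, and -0.01, 0.04 and -0.07 in replicate 1 alone. Those of Pla2g7 were 0.04, 0.11 and -0.02 in replicate 1 alone, and in mutant mice 0.41 in replicates 2 and 3 alone, 0.39 with quantile normalization again and 0.44 with array weights. Gfap was -0.09 in replicate 1 alone in control mice and 0.62 with array weights in mutant mice. The genotype difference in the kainate effect was 0 without both replicate 3 kainate arrays, with or without the batch block, and -0.10 in replicate 1 alone for Gfap, and for Pla2g7 0.17 with quantile normalization again, 0.20 with array weights and -0.13 in replicate 1 alone.

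Counts of probe sets past the threshold were 0, 0 and 0 for genotype on average, after saline and after kainate, 5, 1 and 1 for kainate on average, in control and in mutant mice, and 0 for the interaction. In that order array weights gave 938, 2, 477, 1018, 113, 1007 and 2. Without both replicate 3 kainate arrays they were 5, 1, 0, 9, 5, 3 and 0, and with the batch block as well 29, 6, 5, 20, 7, 5 and 0. In replicates 2 and 3 alone genotype after kainate gave 5, and kainate 204, 16 and 73. Quantile normalization again gave 9, 2 and 4 for kainate. For kainate in control and in mutant mice the replicate number as a block gave 3 and 2, the batch block 2 and 2, and only the arrays compared 6 and 0. For kainate in control mice the stricter filter gave 3 and eBayes with trend 4, and for kainate in mutant mice no filter gave 0. With 1 array left out the counts ran from 0 to 2 for genotype on average, 0 to 18 after kainate, 5 to 58 for kainate on average, 1 to 4 in control and 0 to 67 in mutant mice. The highest of these came without control kainate replicate 3 for genotype on average, and without mutant kainate replicate 1 for the other 4. The cause of these changes was not tested. Apoe and Pla2g7 do not reach the stricter filter and have no value there.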

Other observations

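Oligodendrocyte, vascular and choroid plexus genes were measured in small numbers. Of 32 oligodendrocyte genes 4 passed the filter, and none of them passed the threshold on the averaged genotype difference, with a median of -0.18, or -0.05 without both replicate 3 kainate arrays. The myelin lipid synthesis gene Ugt8a gave -0.49 ± 0.34, Ermn -0.24 ± 0.15, the transcription factor gene Olig1 -0.13 ± 0.16 and Tspan2 0.06 ± 0.10. On the averaged kainate difference Ugt8a gave -0.54 ± 0.34, with -0.15 within replicate 1 and -0.73 within replicates 2 and 3. Of 41 genes of endothelium, pericytes and blood 5 passed the filter, with a median genotype difference of 0.07. Their largest value was that of the growth factor receptor gene Flt1 (-0.33 ± 0.27). Of 28 choroid plexus and ependymal genes 2 passed the filter, Sostdc1 and Dynlrb2, with averaged kainate differences of -0.86 ± 0.61 and -0.26 ± 0.06, neither past the threshold (limma, adjusted p = 0.65 and 0.297).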
